A study of Mus musculus with 6 samples.

Results

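The accessible chromatin of Th9 and Th17 cells was compared in 4 of the 6 libraries of an ATAC-seq series, 2 from each subset. ATAC-seq uses the transposase Tn5 to cut and tag DNA that is not covered by nucleosomes, so a peak marks a stretch of open chromatin. The cells were naive CD4+CD62L+ T cells from the spleen of wild-type C57BL6/J mice, activated in culture with anti-CD3 and anti-CD28. Th9 cultures received IL-4, human IL-2, human TGF-beta1 and anti-IFN-gamma. Th17 cultures received IL-6, TGF-beta1, IL-23 and IL-1beta, with antibodies to IFN-gamma, IL-4 and IL-2. Both cultures therefore received TGF-beta, and they differed in IL-4 and IL-2 on one side and in IL-6, IL-23 and IL-1beta on the other. The libraries are labelled replicate 1 and replicate 3 of each subset, and no label ties them to separate animals, so every p-value here measures only the spread between these libraries. The peaks of the 4 lists on chromosomes 1 to 19 were joined wherever they overlapped or touched, which gave 194675 regions. Of these, 10471 were called in both Th9 and neither Th17 library (5.38% of all regions), 10223 in both Th17 and neither Th9 library (5.25%), and 53038 in all 4 libraries.

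Naive CD4 T cells become helper subsets under the direction of cytokines, whose receptors activate STAT transcription factors. IL-4 acts through STAT6 and IL-2 through STAT5, and both are needed for the IL-9 produced by Th9 cells, while IL-6 and IL-23 act through STAT3 towards the IL-17A and IL-17F of Th17 cells. TGF-beta is a requirement the 2 programmes share, and the AP-1 family factor BATF and its partner IRF4 act in both. Whether a cytokine gene can be switched on depends in part on whether its promoter and distal enhancers are open.

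The promoters of the signature cytokines show the contrast most directly, and their sequences on mm10 are printed here because each lay in a region called in 1 subset only. The Il9 and Il4 stretches are the 200 bases before the outermost annotated start of a protein-coding transcript, and those of Il17f and Il17a are the bases around the RUNX word within that distance. Capitals mark a STAT6-type word (TTC and GAA with 4 free bases between), an AP-1 word (TGANTCA) and a RUNX word (TGTGGT), each searched on both strands.
Il9, 200 bases upstream, minus strand, chr13:56482247-56482446: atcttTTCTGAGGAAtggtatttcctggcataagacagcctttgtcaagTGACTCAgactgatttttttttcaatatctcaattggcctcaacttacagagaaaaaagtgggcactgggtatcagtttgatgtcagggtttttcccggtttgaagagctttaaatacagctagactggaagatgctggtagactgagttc
Il4, 200 bases upstream, minus strand, chr11:53618670-53618869: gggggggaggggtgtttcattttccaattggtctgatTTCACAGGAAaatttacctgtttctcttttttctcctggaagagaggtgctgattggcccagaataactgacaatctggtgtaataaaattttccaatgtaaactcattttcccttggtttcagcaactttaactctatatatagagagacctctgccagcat
Il17f, upstream, minus strand, chr1:20784329-20784368: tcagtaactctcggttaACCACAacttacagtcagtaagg
Il17a, upstream, plus strand, chr1:20730836-20730875: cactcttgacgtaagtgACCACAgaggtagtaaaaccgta
A STAT6-type word stood in both Th9 promoters and in 4.11% of the 39516 stretches of 200 bases upstream of annotated protein-coding starts. The AP-1 word of the Il9 promoter occurred in 4.49% of those stretches, and the RUNX word of both Th17 promoters in 9.90%. A match describes the letters and was not tested as a binding site.

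Upstream of Il9, 3 further regions set the subsets apart, and their central 300 bases are printed with STAT words (TTCNNNGAA), GATA words (AGATAA or TGATAA) and RUNX words in capitals.
Il9, 5658 bp upstream, minus strand, chr13:56488271-56488570: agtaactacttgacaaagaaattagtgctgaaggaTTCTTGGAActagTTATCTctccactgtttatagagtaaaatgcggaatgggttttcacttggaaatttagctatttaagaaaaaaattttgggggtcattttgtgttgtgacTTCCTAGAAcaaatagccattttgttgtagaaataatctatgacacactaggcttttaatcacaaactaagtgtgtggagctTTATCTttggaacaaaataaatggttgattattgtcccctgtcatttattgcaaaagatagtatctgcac
Il9, 19728 bp upstream, minus strand, chr13:56502603-56502902: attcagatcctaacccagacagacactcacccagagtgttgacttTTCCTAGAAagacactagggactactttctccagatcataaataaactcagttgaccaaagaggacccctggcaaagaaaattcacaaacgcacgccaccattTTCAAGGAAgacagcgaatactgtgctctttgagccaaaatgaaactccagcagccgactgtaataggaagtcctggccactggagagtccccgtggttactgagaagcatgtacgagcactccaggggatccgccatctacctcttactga
Il9, 24577 bp upstream, minus strand, chr13:56507162-56507461: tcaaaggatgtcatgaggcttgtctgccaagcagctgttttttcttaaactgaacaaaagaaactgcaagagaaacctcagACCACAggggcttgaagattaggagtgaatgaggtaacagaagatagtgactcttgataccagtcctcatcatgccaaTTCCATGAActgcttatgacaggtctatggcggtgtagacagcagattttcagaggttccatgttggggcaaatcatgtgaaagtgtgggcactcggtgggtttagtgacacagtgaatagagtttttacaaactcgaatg
All 3 windows held a STAT word, which stood in 8.59% of the central windows of all regions. The window 5658 bp upstream also held 2 GATA words, and a GATA word stood in 19.96% of all windows.

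The 4 lists held 136987 (Th9 replicate 1), 98200 (Th9 replicate 3), 120687 (Th17 replicate 1) and 94854 (Th17 replicate 3) peaks on these chromosomes, a mean of 117594 ± 27427 for Th9 and 107770 ± 18267 for Th17 (SD, n = 2). The difference between these means was smaller than either SD. Read counts are not in the lists, so the depth was recovered from peaks of flat coverage, and the background came to 5.65 and 12.1 fragments per base in the Th9 libraries and 14.4 and 17.7 in the Th17 libraries. Both Th9 libraries were thus shallower than both Th17 libraries. The lowest fold enrichment in a list was 2.11 and 1.83 in Th9 and 1.76 and 1.71 in Th17, so weak regions could be called at a lower fold in Th17. Depth and subset cannot be told apart here. In a culture, fewer cells with an open region and less opening per cell cannot be told apart either.

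Regions were more often private to the libraries of 1 subset than to other pairs. The pairs of a subset alone accounted for 20694 regions, against 9760 for the pairs that share a replicate number and 6628 for the remaining pairs. With 3 ways to form pairs from 4 libraries, the one-sided exact permutation test gave p = 0.333, the smallest value it can give. Among regions called in all 4 libraries, the percentiles of the Th17 libraries correlated best (Spearman rho 0.925), then those of the Th9 libraries (0.881), and the 4 pairs across subsets lay between 0.809 and 0.824. The largest classes after the regions called in all 4 were nevertheless single libraries, with 36991 regions in Th9 replicate 1 alone and 21856 in Th17 replicate 1 alone. Which subset had more private regions depended on the peaks used. With only peaks of at least 2.2-fold enrichment, a floor that all 4 lists reach, the counts were 10066 for Th9 and 3307 for Th17, and with only peaks of −log10 q of at least 5 they were 3059 and 7008.

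**Figure D1:**
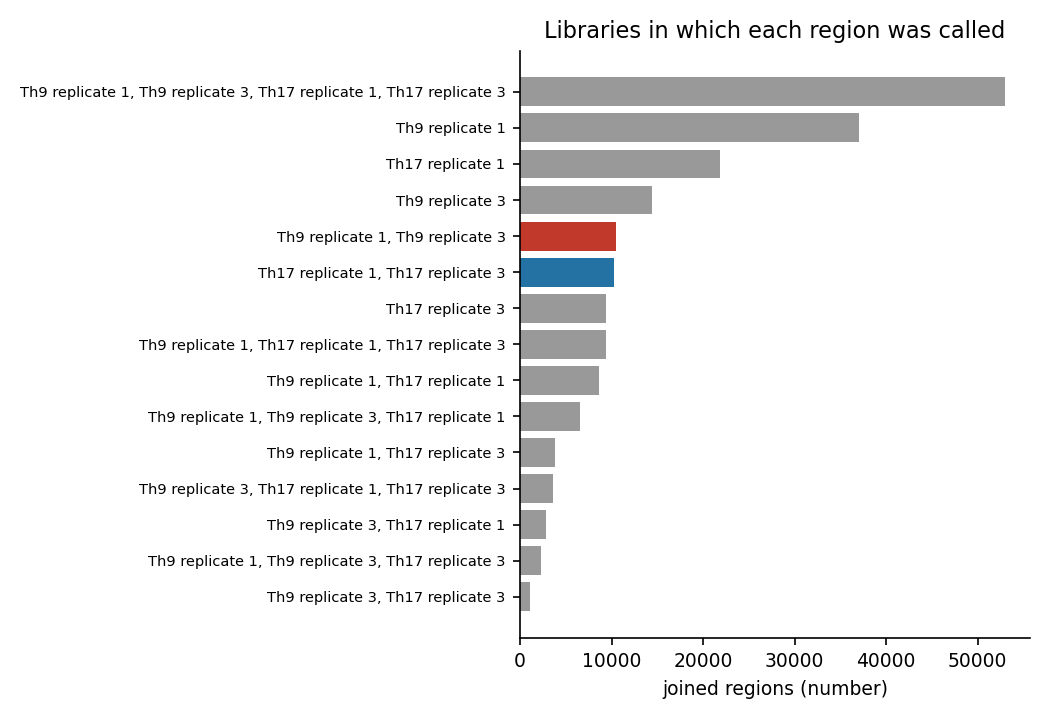
Number of joined regions (x axis) called in each combination of the 4 libraries (y axis), with the Th9 pair in red and the Th17 pair in blue. The regions called in all 4 libraries (53038) form the largest class, and the 2 subset pairs (10471 and 10223) exceed every other pair of libraries.

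Regions of 1 subset lay over a start less often than regions called in all 4 libraries. A transcription start of a protein-coding gene fell in 2.47% of the Th9-only regions (259) and in 0.822% of the Th17-only regions (84), against 22.4% of the regions called in all 4 libraries, 6.85% of all regions and 0.907% of the regions called in other combinations. The median distance to the nearest start was 33990 bp for Th9-only regions, 60937 bp for Th17-only regions 20835.5 bp for regions called in all 4 and 50094 bp for all regions. More than 100 kb from any start lay 40.4% of the Th17-only but 23.6% of the Th9-only regions, beside 35.9% of all regions. The Th9-only regions also reached higher within their own lists, where the within-list percentile ranks a peak by its fold enrichment among all peaks of its library. A mean percentile above 80 was found for 817 Th9-only regions (7.80%) and 261 Th17-only regions (2.55%). 

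At Il9, the gene for the cytokine that defines Th9 cells, a region of 2072 bp over the start (chr13:56480974-56483045) was called at percentiles of 88.5 and 90.6 in Th9 and in neither Th17 library. A region 19728 bp upstream behaved likewise, with 89.1 and 91.7 in Th9 and no peak in Th17. The region 24577 bp upstream carried a peak in every library, at 98.1 and 95.8 in Th9 and at 56.9 and 66.7 in Th17. The groups did not overlap there, and in Th9 the peak also covered 864 and 977 bp against 401 and 500 bp in Th17. Its shift of 35.1 ± 6.26 percentile points (SE) missed the threshold of 0.05 (limma adjusted p = 0.0584). Ranked again among the 53038 shared regions, the shift was 58.2 ± 7.66 points (limma adjusted p = 0.0064). At 5658 bp upstream the values were 90.3 and 92.2 in Th9 and 70.2 and 75.7 in Th17, again without overlap. The shift there passed after re-ranking (limma adjusted p = 0.0391) but not within lists (limma adjusted p = 0.122). A region over the end of the gene, 2097 bp downstream of the start, ran the other way, with 89.5 and 83.6 in Th9 and 95.7 and 92.3 in Th17. Its shift towards Th17 also passed after re-ranking (-15.8 ± 3.96 points, limma adjusted p = 0.0447) but not within lists (limma adjusted p = 0.258). This last region was 5041 bp long, and peaks covered 3024 and 5041 bp of it in Th9 but 1271 and 1439 bp in Th17. Not every region near Il9 passed after re-ranking. At 39658 bp upstream the values were 95.8 and 95.9 in Th9 and 93.6 and 89.3 in Th17, also without overlap. The re-ranked shift there was 7.42 ± 2.95 points (limma adjusted p = 0.197).

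The type 2 cytokine locus, in which Il4, Il13, the DNA repair gene Rad50 and Il5 lie side by side, was open at many more sites in Th9. The region over the Il4 start was called at 89.4 and 92.2 in Th9 and in neither Th17 library. Of the 6 regions with Il4 as nearest gene, 4 were Th9-only, and of the 9 nearest to Il13, 5 were Th9-only. One lay 1145 bp upstream of the Il13 start, at 90.05 and 90.3 in Th9. Within Rad50, regions 16115 and 19978 bp upstream of Il13 were Th9-only at 88.9 and 84.7 and at 94.6 and 90.2. The shared region 21913 bp upstream of Il13 stood at 92.3 and 86.8 in Th9 and at 72.7 and 63.7 in Th17, with no overlap between the subsets. Downstream of Il5, a region at 14045 bp had 93.1 and 91.5 in Th9 and 75.7 and 58.9 in Th17, a re-ranked shift of 40.5 points (limma adjusted p = 0.0125). Its within-list shift did not pass (limma adjusted p = 0.0928). None of the regions nearest to these 4 genes was Th17-only. The start of Il13 and that of Il5 were under no peak in any of the 4 libraries.

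At the starts of the IL-17 locus the contrast was reversed. The annotated Il17f start lay in a region of 607 bp (chr1:20784032-20784638) called at 86.4 and 87.1 in Th17 and in neither Th9 library. The Il17a start lay in a region of 1663 bp at 81.0 and 68.8 in Th17, likewise without a peak in Th9. Il17a had 4 Th17-only regions among 18 and Il17f had 2 among 9, and neither gene had a Th9-only region. Regions called in other combinations went both ways. One 2813 bp downstream of the Il17f start had 75.2 and 41.9 in Th9 and 2.03 in Th17 replicate 3 alone. Another, 36543 bp upstream of Il17a, had 80.5 and 76.4 in Th9 and 58.9 in Th17 replicate 1 alone. At 5251 bp downstream of the Il17a start the values were 68.3 and 58.7 in Th17 and 55.2 in Th9 replicate 1 alone. Several regions between the genes were open in all 4 libraries. The one 12811 bp downstream of the Il17a start had 97.1 and 96.0 in Th9 and 99.9 and 99.6 in Th17, a re-ranked shift of -7.01 ± 1.69 points, Th9 minus Th17 (limma adjusted p = 0.038). Its within-list shift did not pass (limma adjusted p = 0.13). At 9389 bp downstream of the Il17a start the values were 99.3 and 96.1 in Th9 and 99.2 and 98.8 in Th17, with overlap between the subsets. The 3 genes that mark the cultures thus fell as labelled, Il9 and Il4 at the start in Th9 only and Il17f at the start in Th17 only.

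**Figure D2:**
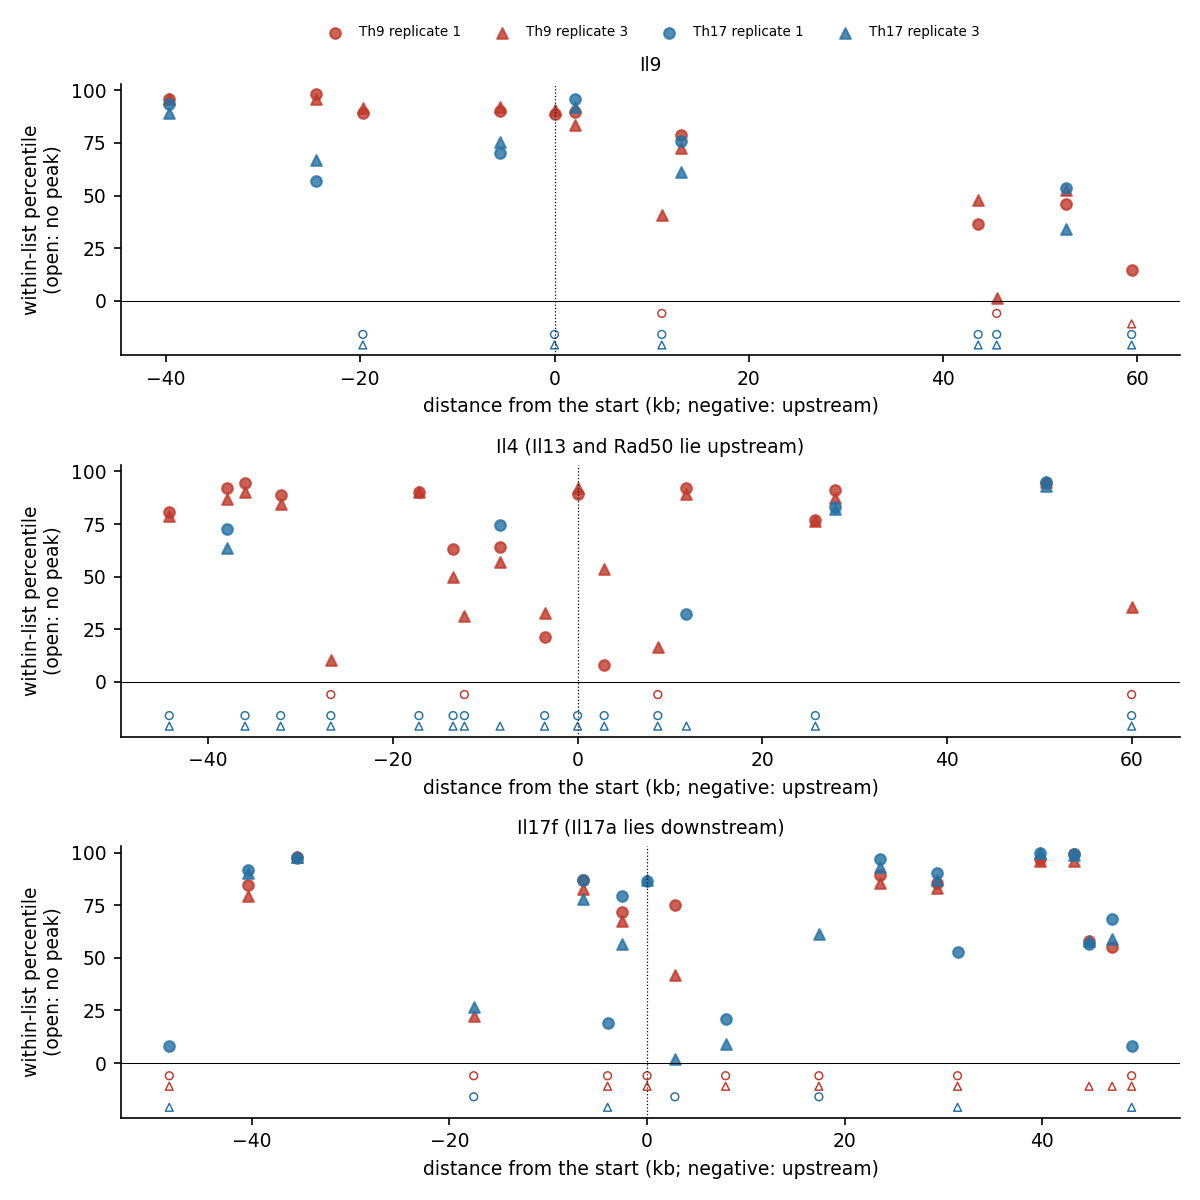
Within-list percentile (y axis) of each joined region by its distance from the start of Il9, Il4 and Il17f in kb (x axis, negative upstream), with filled points for called peaks and open points below 0 for libraries without a peak. At the Il9 and Il4 starts only the Th9 libraries carry a peak (88.5 to 92.2), and at the Il17f start only the Th17 libraries do (86.4 and 87.1).

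Across the 53038 regions called in all 4 libraries, few shifts passed the test on the within-list percentile. With limma and Benjamini-Hochberg adjustment, 4 regions were higher in Th9 (0.00754% of those tested) and 1 was higher in Th17 (0.00189%), each at an adjusted p of 0.0439. A further 420 regions towards Th9 and 185 towards Th17 had an adjusted p from 0.05 to 0.1. The median percentile of the shared regions was 78.2 in Th9 replicate 1 and 69.3 in Th9 replicate 3, and 75.6 and 69.9 in the Th17 libraries, so within a subset a longer list placed the same regions higher. When the percentiles were ranked again among the shared regions, 1200 were higher in Th9 (2.26%) and 1028 in Th17 (1.94%). Apart from the 4 and 1 above, none of these passed on the within-list percentile. The percentiles of the subsets did not overlap in 20978 shared regions, in either direction (39.6%). Without Th17 replicate 1 the re-ranked count towards Th17 was 84 and without Th17 replicate 3 it was 157, and without Th9 replicate 3 it was 1560. The count towards Th9 was 539 without Th9 replicate 1 and 778 without Th9 replicate 3.

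The 4 regions that passed towards Th9 were all distal. The largest shift lay 14872 bp downstream of the start of Ddit4, an inhibitor of mTOR signalling, at 99.3 and 98.3 in Th9 and 71.8 and 67.4 in Th17, a difference of 29.2 ± 4.52 points (SE). A region 30021 bp upstream of a start of Tiam1, an activator of the GTPase Rac, had 98.6 and 97.7 in Th9 and 73.6 and 72.8 in Th17, a difference of 24.9 ± 4.01. Inside an intron of the malic enzyme gene Me1, 44882 bp from the start of Rwdd2a, the values were 99.3 and 97.9 against 84.4 and 83.3. Near Tnfrsf18, which encodes the costimulatory receptor GITR, a region 2663 bp upstream stood at 99.5 and 98.7 in Th9 and 87.5 and 84.97 in Th17. The single region towards Th17 lay in ccdc198, 25442 bp from its start, at 88.3 and 79.3 in Th9 and 99.8 and 99.5 in Th17. In none of the 5 regions did the subsets overlap, but selection by the shift favours this. It also held in 39.6% of all shared regions. All 5 lost the call when a region took the mean percentile weighted by peak length (limma adjusted p = 0.0868) and with peaks of −log10 q of at least 5 (0.0512).

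**Figure D3:**
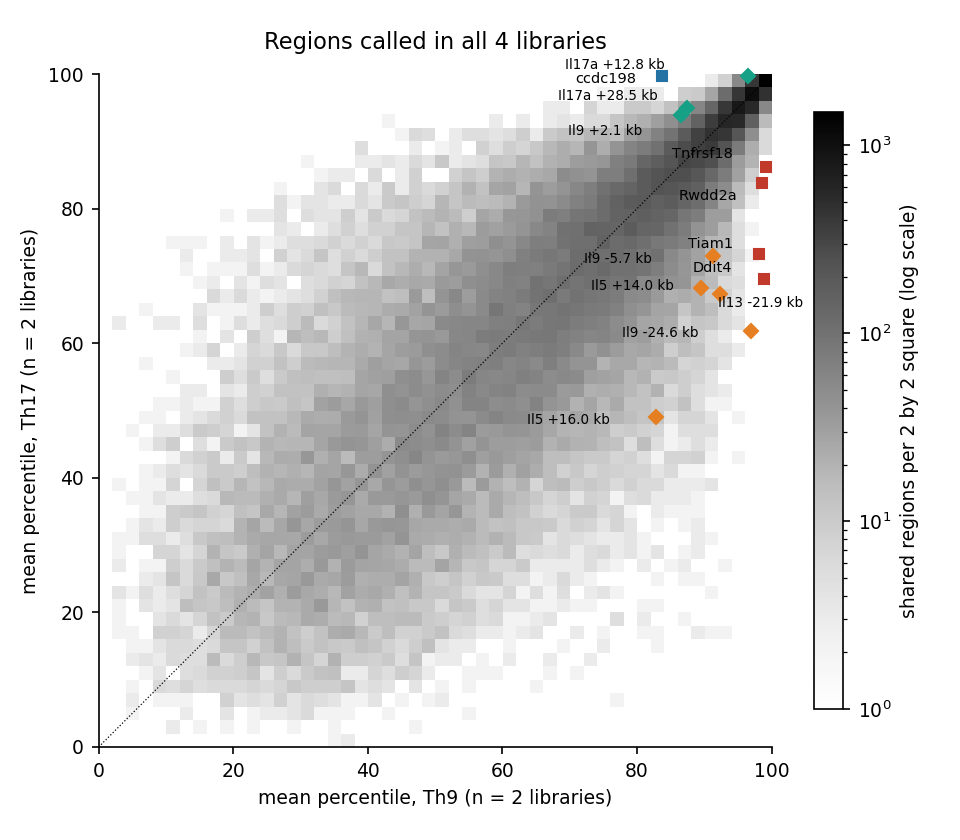
Mean within-list percentile of the 53038 shared regions in Th9 (x axis) and Th17 (y axis), n = 2 libraries each, with grey for the number of regions per square on a log scale. Squares mark the 5 regions past the threshold on the within-list percentile and diamonds mark regions of the cytokine loci past it after re-ranking, such as the one 24.6 kb upstream of Il9.

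Genes of IL-9 and type 2 responses, 23 in the list, had 345 regions nearest to them. Of these 44 were Th9-only (12.8%, beside 5.38% of all regions) and 19 were Th17-only (5.51%). Of their 134 shared regions, 19 were higher in Th9 (14.2%) and 3 in Th17 (2.24%) after re-ranking. Over all shared regions these shares were 2.26% and 1.94%. On the within-list percentile 0 of the 134 passed, and 0 passed in each of the other lists. The median within-list shift of these shared regions was 3.02 points towards Th9, beside 0.37 over all shared regions. Batf, which encodes the AP-1 factor used by both subsets, had 2 Th9-only regions, one of them 16246 bp upstream at 93.1 and 88.2. Its start stood at 89.3 and 87.8 in Th9 and at 91.2 and 88.1 in Th17, where the subsets overlapped. An intronic region 11528 bp from that start was higher in Th9 after re-ranking, at 95.01 and 93.3 against 88.3 and 78.6. Irf4, the partner of BATF, had 4 Th9-only regions and 3 shared ones that were higher in Th9 after re-ranking. One lay 81825 bp from its start, at 89.8 and 87.6 in Th9 and 58.0 and 18.5 in Th17. Ccr8, a chemokine receptor of type 2 and regulatory T cells, was called over its start in all 4 libraries. Its start stood at 94.3 and 93.3 in Th9 and 58.2 and 48.9 in Th17, a re-ranked shift of 60.8 ± 7.88 points (limma adjusted p = 0.0064). The start of Il10, an anti-inflammatory cytokine, was Th9-only at 48.3 and 44.5, well below the Il9 and Il4 starts.

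Gata3, the main regulator of Th2 cells, had more Th17-only than Th9-only regions. In the same list the counts were 7 against 3 of 40 regions for Foxo1 and 1 against 0 of 12 for Il4ra. Over all regions the shares were 5.25% Th17-only and 5.38% Th9-only. These counts are small and were not tested. Gata3 had 69 nearest regions, as far as 1130588 bp away, of which 4 were Th9-only and 9 Th17-only. After re-ranking 4 shared regions were higher in Th9 and 2 in Th17. The Gata3 start stood at 95.5 and 93.7 in Th9 and at 87.9 and 87.5 in Th17, a re-ranked shift of 12.9 ± 3.65 points that missed the threshold (limma adjusted p = 0.0703). The subsets did not overlap there. A distal region 499958 bp from the start was Th9-only at 91.2 and 91.6. At 129767 bp the order was reversed, with 51.7 and 26.5 in Th9 and 81.0 and 77.1 in Th17.

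Genes of IL-2 and STAT5 signalling had 52 Th9-only (17.3%) and 12 Th17-only (4%) regions of 300. Of 140 shared regions, 18 were higher in Th9 (12.9%) and 2 in Th17 (1.43%) after re-ranking, beside 2.26% and 1.94% of all shared regions. Socs1, a feedback inhibitor of cytokine receptors, had a region 25831 bp from its start at 91.4 and 91.1 in Th9 and 36.9 and 17.2 in Th17. Its re-ranked shift was 73.7 ± 9.78 points (limma adjusted p = 0.0064), with no overlap between the subsets. Another Socs1 region, at 82353 bp, was Th9-only at 87.0 and 92.7. Socs2, of the same family, was higher in Th9 over its start, at 96.2 and 94.8 against 86.5 and 84.7. Prdm1, which encodes the repressor Blimp-1, had 5 Th9-only regions and 5 shared ones higher in Th9 after re-ranking. The subsets overlapped at its start, at 95.5 and 92.5 in Th9 and 96.6 and 94.5 in Th17. Of 86 regions nearest to the growth regulator Myc, 18 were Th9-only and 3 Th17-only. In Il2ra, which encodes the alpha chain of the IL-2 receptor, an intronic region 4188 bp from the start was Th9-only at 80.04 and 77.1, and the start was shared at 93.9 and 94.2 against 91.5 and 87.0. Il7r, the receptor of IL-7, carried a region that ran the other way, 44862 bp upstream, with 35.9 and 60.5 in Th9 and 90.5 and 92.0 in Th17 (re-ranked shift -58.7 ± 10.6 points, limma adjusted p = 0.0126).

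Genes of the Th17 programme did not lean as one. Of their 367 regions 33 were Th9-only and 33 were Th17-only (8.99% each). Of 113 shared regions 10 were higher in Th9 (8.85%) and 7 in Th17 (6.19%) after re-ranking, beside 2.26% and 1.94% of all shared regions. Il23r, the receptor that maintains Th17 cells, had its start in a Th17-only region at 12.1 and 61.2, and an intronic region 8109 bp away was at 76.4 and 65.5 in Th9 and 96.0 and 87.9 in Th17. Il1r1, the receptor for IL-1, had 5 Th17-only regions, one of them over its upstream start at 58.8 and 61.9, but also 2 Th9-only regions. Around Il21, a cytokine that acts back on the cells that make it, 3 regions were Th17-only and 2 Th9-only, with the highest of the former 22512 bp from the start at 79.6 and 82.7. Csf2, the gene of the cytokine GM-CSF, had 1 Th17-only and 2 Th9-only regions. A region 15340 bp upstream of Il22, a cytokine of barrier defence, was Th17-only at 83.5 and 61.3. Regions near the list's transcription factors were found in both classes. Rora, a nuclear receptor that promotes IL-17 expression, had 7 Th9-only and 5 Th17-only regions, and 4 shared regions, all intronic, were higher in Th9 after re-ranking. The largest of these, 14581 bp from the start, had 89.6 and 83.5 in Th9 and 38.2 and 14.1 in Th17. Runx1 had 9 Th9-only and 3 Th17-only regions, with 2 shared regions higher in each direction. Maf, which encodes the factor c-Maf, had 5 Th9-only and 3 Th17-only regions, and 3 shared regions were higher in Th9 after re-ranking.

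Genes of IL-6, IL-1 and STAT3 signalling had 13 Th9-only (6.84%) and 17 Th17-only (8.95%) regions of 190. Of 84 shared regions 9 were higher in Th9 (10.7%) and 2 in Th17 (2.38%) after re-ranking, beside 2.26% and 1.94% of all shared regions. Of these 9, 4 belonged to Batf3, a relative of Batf, which had 12 regions in all. Its start stood at 93.4 and 92.4 in Th9 and 77.9 and 76.6 in Th17 (re-ranked shift 27.6 ± 5.54 points, limma adjusted p = 0.0188), and an intronic region 3735 bp away at 88.5 and 80.6 against 28.7 and 36.8. Il6ra, the receptor chain for IL-6, was higher in Th9 at 2 intronic regions, at 91.6 and 88.0 against 71.4 and 41.7 in the one 32360 bp from its start. Fosl2, an AP-1 factor, had 3 Th17-only regions and a shared one 45964 bp upstream at 70.9 and 67.4 in Th9 and 89.1 and 88.2 in Th17.

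Genes of the TGF-beta pathway had 31 Th9-only (6.98%) and 22 Th17-only (4.95%) regions of 444, beside 5.38% and 5.25% of all regions. Of 154 shared regions 6 were higher in Th9 (3.90%) and 4 in Th17 (2.60%) after re-ranking, beside 2.26% and 1.94% of all shared regions. The median within-list shift of the shared regions was 0.97 points. Of the 23 genes, Itgae and Eng had no peak over a start, and the starts of the others were called in all 4 libraries, for example Tgfbr1, the type I receptor, at 94.8 and 96.0 in Th9 and at 96.0 and 94.0 in Th17, with overlap. Smad3, a transducer of the signal, had 92.3 and 92.8 at its start against 91.6 and 86.9. Tgfbr3, a co-receptor also called betaglycan, differed more, with 5 Th9-only regions and 3 intronic regions higher in Th9 after re-ranking. The highest of these, 5149 bp from its start, had 94.5 and 89.4 in Th9 and 80.1 and 74.8 in Th17. Inside Smad3 a region 17107 bp from the start was Th17-only at 83.1 and 78.0.

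Lists that mark other identities gave the values to set beside these. T cell genes had 13 Th9-only (11.1%) and 7 Th17-only (5.98%) regions of 117. Of 54 shared regions 1 was higher in each direction after re-ranking (1.85% each), near the 2.26% and 1.94% of all shared regions. Th1 genes had 17 Th9-only (8.76%) and 5 Th17-only (2.58%) of 194, among them the start of Tbx21, which encodes T-bet, at 43.6 and 15.2 in Th9. Markers of B cells, myeloid cells, NK cells and CD8 T cells had 7 Th9-only regions of 40 (17.5%) and 0 Th17-only, the highest 5051 bp upstream of the integrin gene Itgam at 90.02 and 80.6. Of the 11 such markers on these chromosomes, 8 had no peak over a start in any library, 2 had one in some libraries, and Cd8b1 had one in every library, at 50.7 and 51.2 in Th9 and 74.3 and 75.6 in Th17. The part of other cells in the results was not tested. Over all 130 listed genes with a start on these chromosomes, a start lay in a Th9-only region for 4 genes (Il4, Il9, Il10 and Tbx21) and in a Th17-only region for 3 (Il17a, Il17f and Il23r), to which Il1r1 adds 1 of its starts. For 93 genes the peaks over a start were called in all 4 libraries, and for 20 no start lay under a peak.

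**Figure D4:**
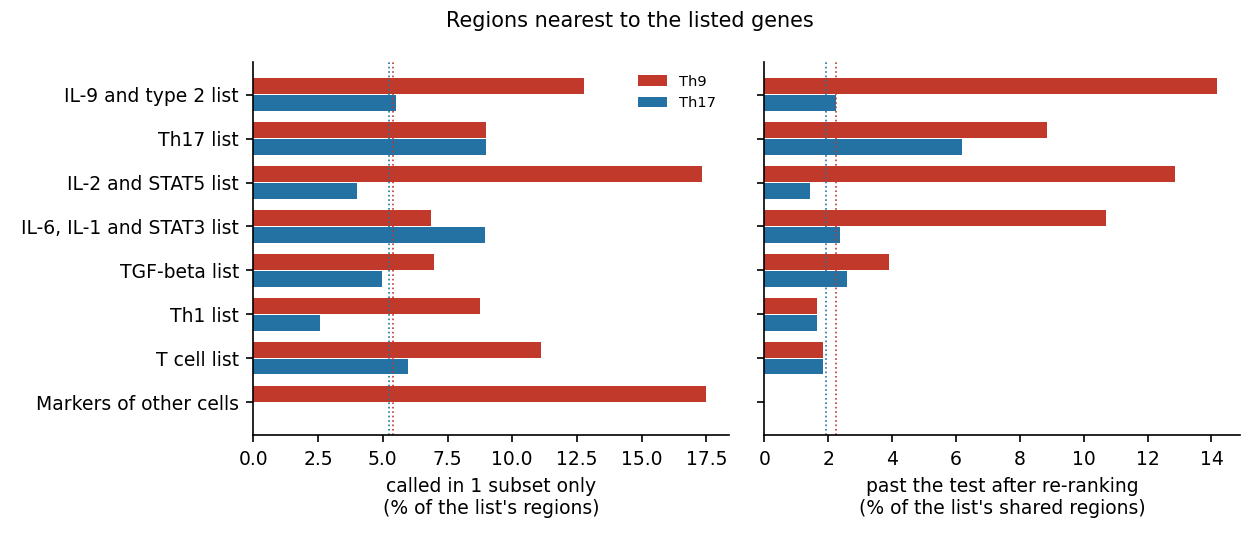
Share of the regions nearest to each gene list that were called in 1 subset only (left, % of the list's regions) and share of its shared regions past the test after re-ranking (right, %), in red for Th9 and blue for Th17, with dotted lines for all regions (5.38% and 5.25% on the left, 2.26% and 1.94% on the right). Every list lies above the Th9 line on the left. The IL-2 and STAT5 list reaches 17.3% Th9-only, the markers of other cells 17.5% (7 of 40 regions), and the Th17 list has 8.99% on either side.

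The top Th9-only region lay 18099 bp upstream of Ppp2r3a, a subunit of the phosphatase PP2A, at 98.2 and 97.0. The next lay 88176 bp from the start of Trib1, a pseudokinase, at 95.9 and 97.0. On the Th17 side the top region was in an intron of Fbxl17, a ubiquitin ligase subunit, at 94.0 and 94.3. Another lay over an exon of Brwd1, 7993 bp upstream of Psmg1, at 94.5 and 91.4. Of the 10 highest Th9-only regions 6 held a STAT word in the central 300 bases, and of the 10 highest Th17-only regions 0 did. A RUNX word stood in 4 of the former and 6 of the latter, and in 23.1% of the windows of all regions. The STAT words of those 6 Th9-only regions (capitals, plus strand of mm10) are printed with 11 bases on either side, each named by its nearest gene.
Ppp2r3a, chr9:101270540-101270570: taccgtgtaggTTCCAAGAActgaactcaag
Trib1, chr15:59737492-59737522: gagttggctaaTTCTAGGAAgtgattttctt
Pth, chr7:113406222-113406252: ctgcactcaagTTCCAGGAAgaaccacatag
Fam8a1, chr13:46697000-46697030: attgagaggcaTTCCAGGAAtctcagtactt
Bmp10, chr6:87447585-87447615: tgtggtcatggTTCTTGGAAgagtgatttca
Tmcc1, chr6:116166517-116166547: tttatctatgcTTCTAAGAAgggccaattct
The RUNX words of 5 of the Th17-only regions follow in the same way, with 12 bases on either side.
Psmg1, chr16:95999416-95999445: aagaaaaagagcACCACAgaaactgaggct
Krt28, chr11:99370229-99370258: ggaaatccttggACCACAtgcttgccccaa
Cnot10, chr9:114613227-114613256: gtgttttttaaaACCACAtgcaacagagtt
Smpdl3a, chr10:57799662-57799691: atcacagttccaACCACAaatgcaaagcag
Ctsc, chr7:88185628-88185657: aattccatcgccTGTGGTgaagtataattt

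STAT words stood in 15.7% of the Th9-only windows, in 7.98% of the Th17-only windows and in 8.59% of all windows. In steps of 20 percentiles from the lowest to the highest, the share in Th9-only regions was 7.97%, 9.15%, 15.4%, 24.8% and 33.5%, while in Th17-only regions it lay between 6.13% and 8.82%. The STAT6-type word, with 4 free bases, stood in 10.2% of Th9-only and 6.37% of Th17-only windows, and also in 6.37% of all windows. GATA words went from 17.8% to 43.0% across the same steps in Th9-only regions and lay between 20.03% and 24.3% in Th17-only regions. RUNX words went from 21.6% to 42.2% in Th17-only regions and lay between 23.05% and 29.3% in Th9-only regions. Over the whole classes they stood in 26.7% and 26.3%, beside 23.1% of all windows. TCF words (AACAAAG or CTTTGAT) reached 26.05% of the strongest Th17-only and 15.1% of the strongest Th9-only windows, beside 10.15% of all windows. AP-1 words stood in 15.25% and 15.26% of the classes as a whole, Th9-only first, and in 25.3% and 29.9% of the strongest regions. Over all windows the AP-1 share was 11.5%. Base composition moved with these shares: the median GC content was 43.0% in the strongest Th9-only, 45% in the strongest Th17-only and 48.7% in all windows.

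Windows of 40 to 45% GC that lay over 1 kb from a start were compared separately. A STAT word stood in 35.0% of the 280 strongest Th9-only windows, in 6.67% of the 90 strongest Th17-only windows and in 11.3% of all 32710 such windows. A RUNX word stood in 29.6%, 38.9% and 26.7% of the same windows, and a GATA word in 47.5%, 23.3% and 29.9%. The GATA share of the strongest Th17-only windows thus lay below that of all windows in this band, but above it (21.5% against 19.96%) without the restriction. Over the whole classes in the band, the RUNX order was reversed, with 31.5% of 2210 Th9-only and 26.7% of 2378 Th17-only windows. The STAT order (21.7% and 9.63%) and the GATA order (37.9% and 27.8%) held there. An AP-1 word stood in 21.6% of the Th9-only and 17.7% of the Th17-only windows of the band, beside 15.8% of all. Among the strongest of them the order was reversed, at 27.1% and 32.2%. Regions called in all 4 libraries that differed after re-ranking were searched too. A STAT word stood in 19.6% of the 1200 higher in Th9 and in 8.56% of the 1028 higher in Th17, beside 8.52% of all shared windows. A RUNX word stood in 27.6% of those higher in Th9 and 36.1% of those higher in Th17, beside 21.6% of all shared windows. Words for an E box (CACCTG, 21.8% and 20.6% of the Th9-only and Th17-only windows) and for SMAD factors (CAGACA, 30.1% and 29.7%) differed little between the subsets, as did part of the CTCF motif (CCACNAGG, 5.16% and 5.48%). An AP-1 word joined to an IRF word (TTTCNNNNTGANTCA) was rare, in 51 Th9-only windows (0.487%) and 17 Th17-only windows (0.166%), beside 0.208% of all windows. The SMAD palindrome (GTCTAGAC) stood in 0.334% and 0.2445% of them. Windows are not replicates, so no test was made on these shares.

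**Figure D5:**
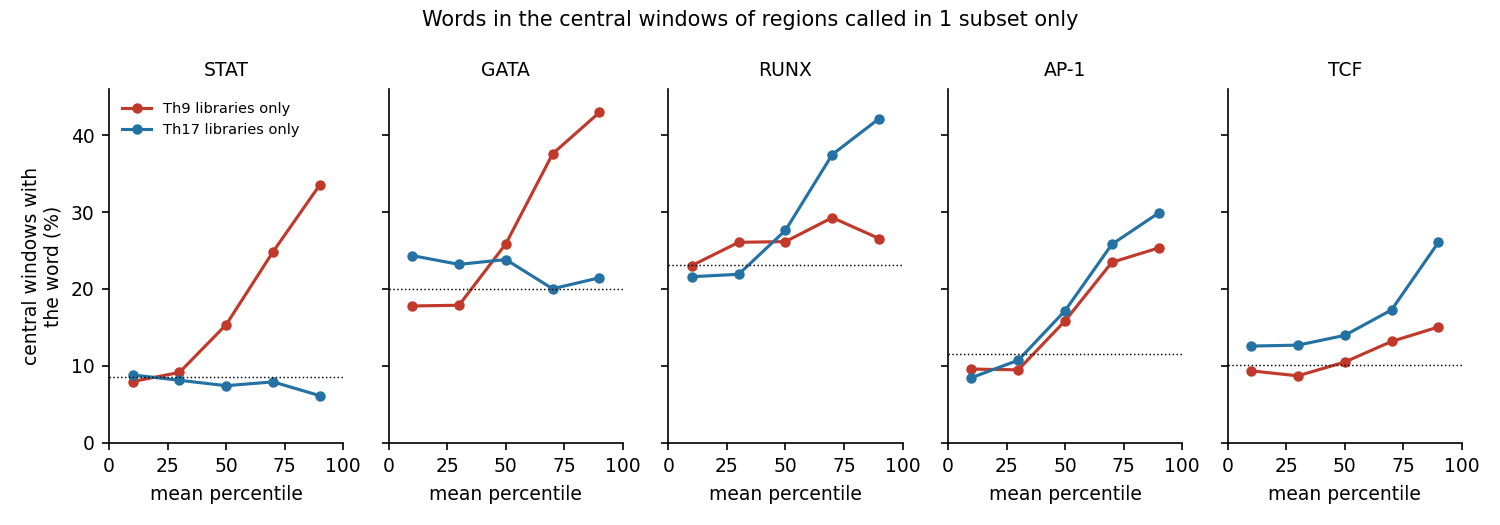
Share of central windows with each word (y axis, %) by mean percentile in steps of 20 (x axis), for regions called in the Th9 libraries only (red) and in the Th17 libraries only (blue), with a dotted line for all regions. STAT and GATA words reach 33.5% and 43.0% in the strongest Th9-only regions, and RUNX words reach 42.2% in the strongest Th17-only regions.

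Counted by nearest gene, the largest excesses of one class over the other lay near genes with many regions. Over all regions, 5.38% were Th9-only and 5.25% Th17-only. On the Th17 side Adgrl2, an adhesion receptor, had 42 Th17-only and 1 Th9-only of 500 regions. Pcdh20, a protocadherin, had 38 Th17-only and 0 Th9-only of 259, and Slitrk1, a neuronal transmembrane protein, had 31 and 0 of 187. The excesses on the Th9 side were smaller, with 17 Th9-only and 0 Th17-only regions for each of Btbd11 (110 regions), Chst1 (63) and Sdk1 (203). Of the 10 leading genes on the Th9 side, Myc was the only one that is also in a list. The genes that follow were chosen after their values were seen, from the largest counts and shifts after re-ranking. Rbpj, the effector of Notch signalling, had 6 shared regions higher in Th9 and 0 in Th17, and Myo10, an unconventional myosin, had 6 higher in Th17 and 0 in Th9. Foxp1, a factor that keeps T cells quiescent, had 17 Th9-only against 6 Th17-only of 83 regions, and 3 shared regions higher in Th9. One of these, in an intron 28628 bp from a start, had 94.7 and 91.4 in Th9 and 29.6 and 33.1 in Th17. Towards Th17, a region 70545 bp upstream of Satb1, which organises chromatin in T cells, had 19.8 and 54.8 in Th9 and 93.8 and 91.7 in Th17. The largest shift after re-ranking lay in an intron of Itpr1, a calcium channel of the endoplasmic reticulum, 124099 bp from its start, at 95.2 and 92.8 in Th9 and 26.6 and 1.88 in Th17. Upstream of Rasgrp1, an activator of Ras downstream of the T cell receptor, a region at 114980 bp had 92.7 and 92.4 in Th9 and 8.82 and 13.96 in Th17. A region 197187 bp upstream of Nr4a3, a nuclear receptor induced by T cell receptor signals, had 92.6 and 93.5 against 32.8 and 5.33. In the other direction an intronic region of Nebl, 24931 bp from its start, had 17.6 and 0.957 in Th9 and 90.9 and 91.2 in Th17. These single regions were taken from those past the test after re-ranking in which the subsets did not overlap. Both traits (limma adjusted p at most 0.008) therefore follow from the choice and add no support.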

How the data were processed

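ATAC-seq peak lists of 4 libraries were analysed (2 Th9, 2 Th17); the 2 Th2 libraries of the series were not used here. According to the submitters' processing notes, the authors used Trim Galore 0.4.3, Bowtie2, Picard and MACS2 2.1.0 on mm10, with peaks called in each library. Each deposited list gives the fold enrichment of a peak, a ratio to background, and its −log10 p and −log10 q as the authors' peak caller wrote them. The paper lists a peak-calling setting without a local background, so fold enrichment was not corrected for local differences. Fold enrichment was turned into a percentile within each list, and a joined region took its highest peak (any overlap of 1 bp counted as a call). Shifts in the 53038 regions called in all 4 libraries were tested with limma 3.58.1 (R 4.3.3; group only, no pseudocount, Benjamini-Hochberg adjusted p under 0.05), on the percentile and again after ranking among shared regions. The scripts were tested on simulated data. Regions were given to the nearest protein-coding start of GENCODE M21, and words were searched in their central 300 bp (Python 3.11.15, numpy 2.4.6, pandas 2.3.3, pysam 0.24.0).

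Genes named are those of the lists, the 10 regions and genes leading each class, and the regions past the threshold; members and lists were chosen with earlier results of these data known. Read counts are not in the lists, so no counting intervals are given. Alternatives were peak filters, lists of equal length, other scales, a replicate block and leaving out each library. Listed genes not named enter the counts only, and some regions and words are not reported here.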

Additional observations from a re-analysis of the deposited data

How the results depend on the processing

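The counts of regions called in 1 subset only, Th9 then Th17, were 10471 and 10223. They were 3059 and 7008 with −log10 q of at least 5, 10066 and 3307 with fold enrichment of at least 2.2, and 3198 and 817 with at least 4. Leaving out 1 library gave 12875 to 48055 for Th9 and 13880 to 33009 for Th17, with a peak in only 1 list needed for the subset that lost a library. Shifts passing limma on the within-list percentile, 4 and 1, numbered 963 and 593 on normal scores, 1200 and 1028 ranked again, 1978 and 1914 on quantile-normalised log2 fold, 32 and 2 at 2.2-fold, and 663 and 523 with lists of equal length. The limma counts were 0 and 0 with the mean weighted by peak length (unadjusted p under 0.05 in 3356 and 2696), with −log10 q of at least 5 (1125 and 3628) and at 4-fold (1052 and 196). Leaving out 1 library gave 39 to 886 for Th9 and 0 to 2559 for Th17, with 1065 at an unadjusted p under 0.05 where limma called 0, and the lone library was assumed to vary like the others. For shifts ranked again, alternatives chosen after seeing the data gave 539 and 369 with −log10 q of at least 5 and 0 and 0 at 4-fold (744 and 717 unadjusted). Leaving out 1 library gave 539 to 907 for Th9 and 84 to 1560 for Th17. The cause of these changes was not tested. With the replicate block the counts were 1764 and 1299 within lists and 1812 and 1770 ranked again, but the replicates share only a number (correlation of their deviations 0.0248). Which subset had the higher count turned in several of these. It also turned for the private regions with lists of equal length (8249 and 10478) and with 50% of a region covered (10678 and 13020). It turned without Th17 replicate 1 (17036 and 19992) or replicate 3 (12875 and 33009) too. There a Th17-only region needed a peak in 1 list and a Th9-only region in 2, so the order was not compared on like terms. For the within-list shifts it turned without Th9 replicate 1 (240 and 2559) or replicate 3 (39 and 358). None of the 5 regions past the threshold changed the direction of its shift, although regions short of it near Il17a and Il17f did, and among named shifts 12 values fell below the threshold and 47 passed it. The number of libraries and the lower depth of Th9 limit the precision.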
